A study of Mus musculus with 30 samples.

Results

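Lin-negative bone marrow cells of mice aged 12 months were compared with those of mice aged 3 months, gene by gene, across 3 Tet2 genotypes. The comparison used 6 libraries, 3 at each age, of the 24 RNA sequencing libraries in the study; its members were taken from the age, genotype and cell type labels. The study holds 30 samples in all, 6 of them bisulfite libraries not analysed here. At each age there was 1 library of Tet2 WT mice, 1 of Tet2 Mut mice, whose Tet2 lacks its catalytic function, and 1 of Tet2 KO mice, which lack Tet2. All mice carried the strain label Mixed 129/C57BL/6, with sex and any treatment not given in the sources used here. Each library was made from the pooled marrow of 3 mice, so it carries no estimate of the spread between animals. The 3 genotypes served as the replicates of an age. A p-value here sets the age difference against the residual spread left by effects of age and genotype. That spread was estimated from the 12 Lin-negative libraries of all 4 ages. An interaction of age with genotype could not be tested with 1 library each.

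Lin-negative cells are marrow cells left after removal of cells that carry surface markers of mature blood lineages. They hold stem cells and the progenitors of red cells, megakaryocytes, granulocytes, monocytes and lymphocytes. With age, blood formation in mice is known to shift away from B lymphocyte production and towards megakaryocyte-primed and myeloid-primed stem cells. The Tet2 protein oxidises methylated cytosines of DNA, a step towards their demethylation, and its loss expands stem and myeloid cells in mice.

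Values are normalized read counts, that is, reads of a gene divided by 1 size factor per library, and 3 values in a row are given in the order WT, Mut and KO. The 6 libraries held 36111026 to 47713130 reads. Differences are log2 differences, 12 minus 3 months, from limma on log2(value + 1) with genotype as a block, given with their standard error. A gene was called higher or lower at a Benjamini-Hochberg adjusted p under 0.05 over all 16041 genes tested. Of these, 478 genes (2.98%) were called higher at 12 months and 1108 (6.91%) lower, and the median difference of all genes was 0.03. Together 1586 genes (9.89%) were called. Without any 1 of the 6 libraries, 0.306% to 2.34% of genes were called higher and 1.55% to 5.65% lower, without all WT libraries 0.0378% and 0.554%, and with the Y index (below) as a covariate 0.767% and 3.52%. The values of all 3 older libraries lay above those of all 3 younger ones for 16.9% of genes and below them for 17.2%. Because the libraries are bulk RNA, fewer cells of a type and less RNA per cell cannot be told apart.

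The labels were checked against the data. Genes of mature lineages that such a sort normally removes were present at both ages: Itgam, an integrin of myeloid cells, was 17571, 17198 and 15706 at 3 months and 7945, 10999 and 9884 at 12 months, and Ly6g of neutrophils 9560, 10244 and 11907 against 3139, 5679 and 5035. Both were called lower (-0.82 ± 0.18, adjusted p = 0.0192, and -1.23 ± 0.22, adjusted p = 0.00831). The pools differed in sex. The Y index, the summed count of 4 Y-linked genes over its largest value, was 0.717, 0.472 and 0.279 at 3 months and 0, 0.489 and 0.239 at 12 months, so the WT pair changed in it most. No Y-linked gene passed the test, and neither did Xist, the RNA that silences an X chromosome in females (1.23 ± 2.46, adjusted p = 0.802). The part of the Y index in the results below was examined only by using it as a covariate. Tet2 itself was 1815, 1772 and 1302 at 3 months and 1632, 1255 and 1407 at 12 months (-0.18 ± 0.19, adjusted p = 0.602). Its RNA was present in the libraries labelled KO, and summed counts do not check the loss of some exons.

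**Figure D1:**
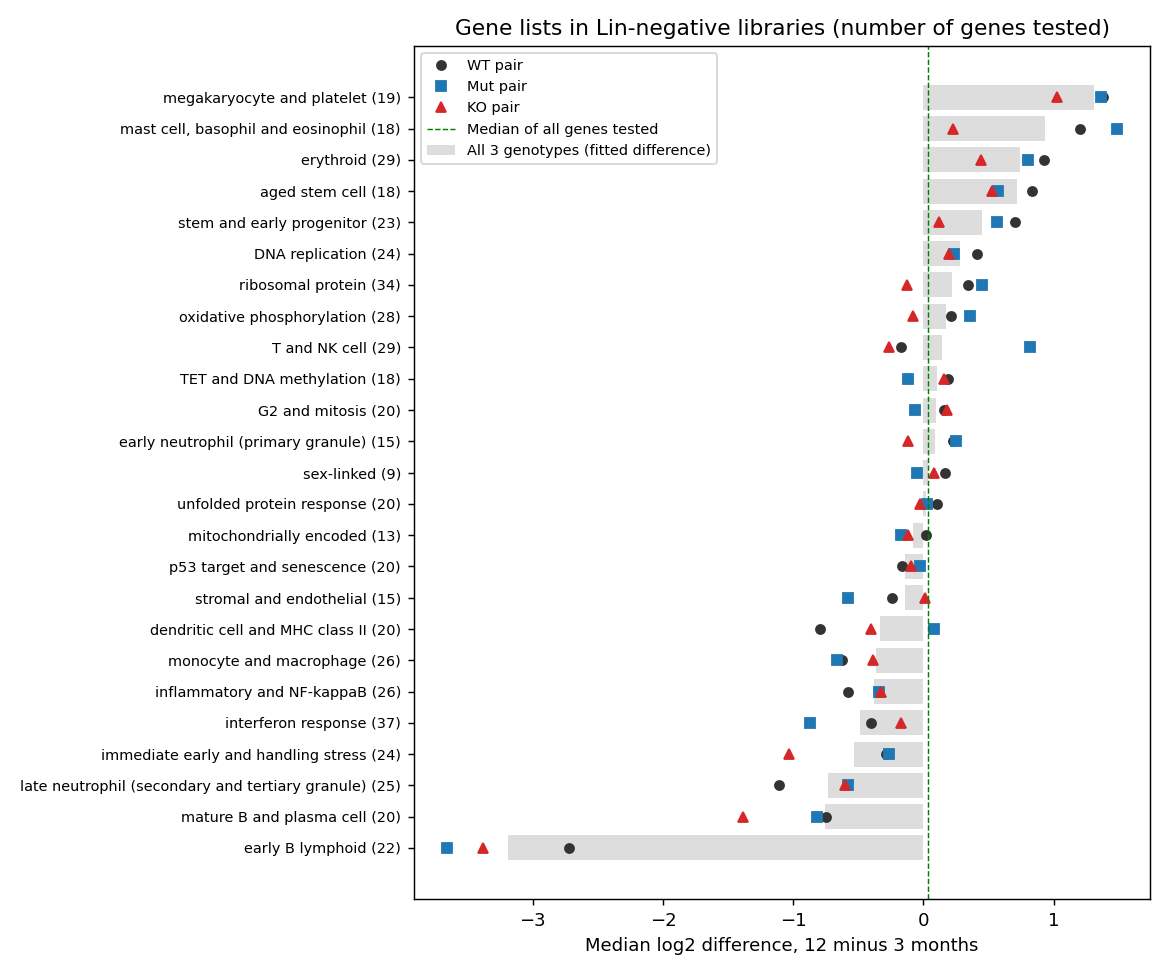
Median log2 difference, 12 minus 3 months (x axis), for each of 25 gene lists (y axis, number of genes tested in parentheses). Bars give the median of the fitted differences, symbols the median within the WT, Mut and KO pair of libraries, and the dashed line the median of all genes tested, 0.03. The early B lymphoid list lies lowest at -3.19 and the megakaryocyte and platelet list highest at 1.31.

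Genes of early B lymphocytes fell furthest of the 25 lists by median. Of the 22 genes tested in this list, 21 were called lower and 0 higher at 12 months, beside 6.91% of all genes called lower, with a median of -3.19. The summed share of counts was 0.0382% to 0.0655% at 3 months and 0.0141% to 0.0155% at 12 months. In 21 of the 22 the older values all lay below the younger ones, beside 17.2% of all genes. The medians of the WT, Mut and KO pairs were -2.72, -3.66 and -3.38. The gene that was not called, Erg, encodes a transcription factor shared with stem cells (-0.22 ± 0.12, adjusted p = 0.293).

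Pax5 (chr4:44524748-44710694, GRCm38.p6), the transcription factor that commits cells to the B lineage, was 810, 1635 and 1020 at 3 months and 10.2, 13 and 32.6 at 12 months (-5.99 ± 0.85, adjusted p = 0.00326), which is 63.7-fold lower on the scale of the fit. Each older library was far below each younger one. Ebf1, which acts before Pax5 in B cell specification, was 422, 961 and 599 against 18.6, 13 and 25.3 (-5.02 ± 0.49, adjusted p = 0.000836). In both factors the Mut library was highest at 3 months, and the KO library was highest at 12 months.

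The machinery of antigen receptor assembly fell with them. Rag1, a subunit of the recombinase that joins receptor gene segments, was 504, 978 and 640 at 3 months and 13.6, 17.9 and 14.7 at 12 months (-5.39 ± 0.48, adjusted p = 0.000681). Its partner Rag2 had a difference of -3.21 ± 0.40 (adjusted p = 0.00203). Dntt, which adds bases at the joints and is also made in earlier lymphoid progenitors, fell less (1383, 1295 and 1119 against 697, 593 and 358; -1.25 ± 0.25, adjusted p = 0.0128). Whether the Rag1 and Dntt differences differ was not tested.

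Igll1, a component of the surrogate light chain that pre-B cells pair with a new heavy chain, was 352, 771 and 684 at 3 months and 16.9, 21.1 and 8.42 at 12 months (-5.20 ± 0.59, adjusted p = 0.00143). The other surrogate light chain genes moved alike, Vpreb1 by -4.63 ± 0.61 (adjusted p = 0.00253) and Vpreb3 by -5.06 ± 0.50 (adjusted p = 0.000871). Reads of Vpreb1 and the near-identical Vpreb2 may have been split in counting, so each of their values is uncertain. Cd79a, a signalling chain of the B cell receptor, was 1410, 2828 and 2821 against 212, 399 and 309 (-2.91 ± 0.32, adjusted p = 0.00113). Il7r, the receptor for interleukin 7 that lymphoid progenitors need, was 839, 1168 and 1142 against 442, 409 and 344 (-1.39 ± 0.17, adjusted p = 0.00203). At 3 months the Mut library was the highest in each of these genes, by a narrow margin over KO in Cd79a and Il7r.

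A gene outside the list fell alike. Chst3, a sulfotransferase that modifies chondroitin sulfate, was 541, 1326 and 851 at 3 months and 12.7, 35.7 and 21 at 12 months (-5.25 ± 0.51, adjusted p = 0.000836). Akap12, a scaffold protein on the early B list, moved by -4.84 ± 0.45 (adjusted p = 0.000836).

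**Figure D2:**
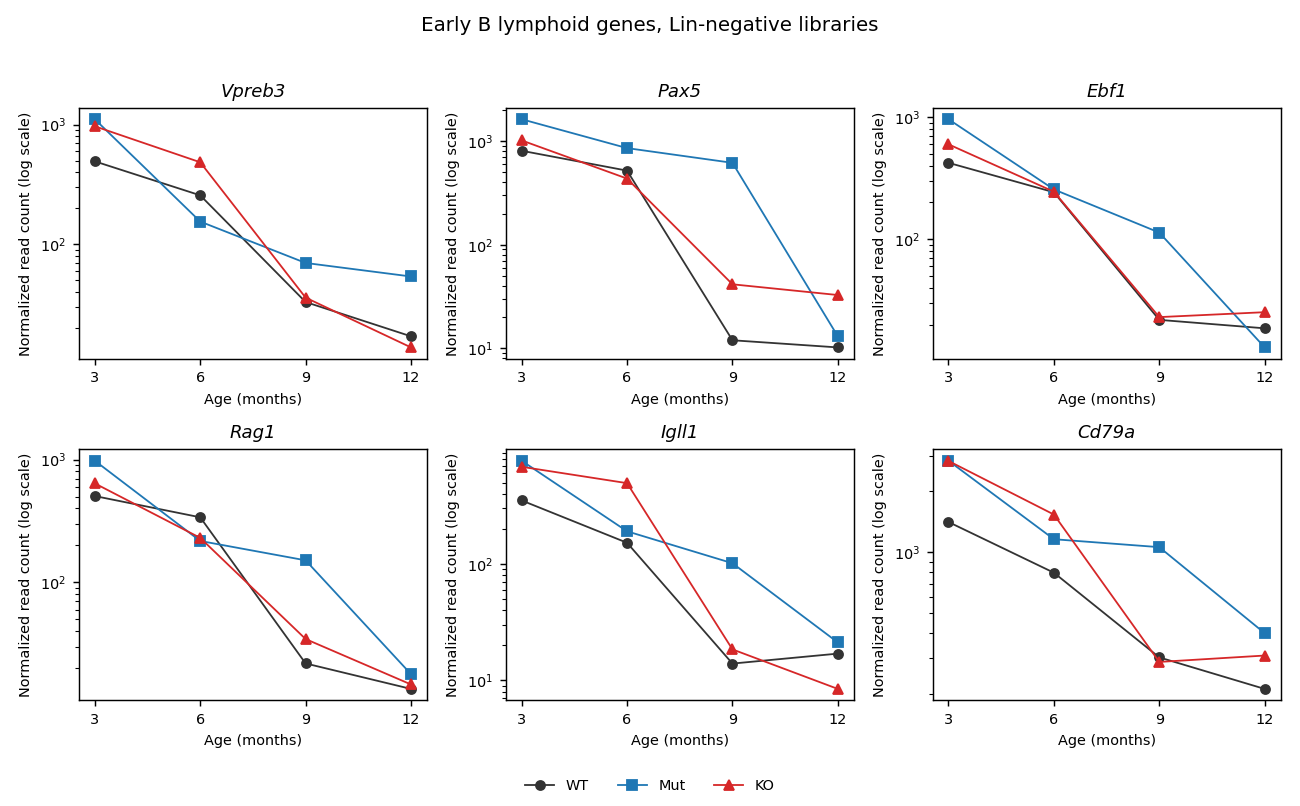
Normalized read count (y axis, log scale) of 6 early B lymphoid genes in the Lin-negative libraries against age in months (x axis), 1 point per library and 1 line per genotype. All 3 libraries at 12 months lie below all 3 at 3 months in each panel, and at 9 months the Mut library stays above the others (Pax5 619, against 11.9 in WT and 41.4 in KO).

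The intermediate ages lay between. Pax5 was 521, 860 and 436 at 6 months and 11.9, 619 and 41.4 at 9 months. The list's median difference from 3 months was -1.02 at 6 months and -2.49 at 9 months. Without any 1 of the 6 libraries, 19 or 20 of the 22 genes were called lower, with the Y index as a covariate 20, and without all WT libraries 14.

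Genes of mature B and plasma cells divided. Of 20 tested, 11 were called lower, beside 6.91% of all genes, and 0 higher (median -0.76). Those called included Ms4a1, which encodes CD20 (255, 693 and 603 against 13.6, 27.6 and 44.2; -4.16 ± 0.63, adjusted p = 0.00427), Fcrla (-4.34 ± 0.62, adjusted p = 0.00336) and the low-level Cr2, a complement receptor (-4.19 ± 0.75, adjusted p = 0.00837). Ighm, the constant region of IgM, was 19237, 40822 and 37006 at 3 months and 9215, 13588 and 8915 at 12 months (-1.57 ± 0.28, adjusted p = 0.00789).

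Genes of antibody-secreting cells were not called. Jchain, which joins IgA and IgM into polymers, was 18216, 7850 and 33740 against 14802, 25454 and 19253 (0.20 ± 0.42, adjusted p = 0.817), and Mzb1, Sdc1, Prdm1 and Xbp1 had differences from -0.52 to -0.14. The ages overlapped in Jchain, whose spread at 3 months was wide. The 203 immunoglobulin genes tested held gene segments and constant region genes, Ighm among them. Of these 203, 8 were called lower, beside 6.91% of all genes, and 0 higher, with a median of -0.02. Reads of similar segments can be split, so single segments are uncertain. The count of mature B and plasma genes called lower was 6 without the 12-month WT library, 4 without the 3-month WT library and 0 without all WT libraries.

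Most megakaryocyte and platelet genes rose, though not the list's sum. Of 19 tested, 11 were called higher, beside 2.98% of all genes, and 3 lower, beside 6.91%, with a median of 1.31. The summed share of all normalized counts was 0.0644% to 0.0680% at 3 months and 0.0550% to 0.0712% at 12 months, higher at 12 months only in the WT pair. The WT, Mut and KO pairs had medians of 1.38, 1.36 and 1.03. The platelet chemokines Ppbp (chr5:90768518-90770063) and Pf4 (chr5:90772435-90773383), neighbours on the chromosome, rose in all 3 genotypes. Ppbp was 18.2, 5.77 and 31 at 3 months and 195, 159 and 217 at 12 months (3.56 ± 0.49, adjusted p = 0.00294). Pf4 was 183, 127 and 410 against 1252, 1184 and 1285 (2.54 ± 0.34, adjusted p = 0.00253). At 12 months the 3 genotypes were close together in Pf4, while at 3 months KO was highest.

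Receptors of the lineage rose too. Itga2b, the alpha chain of the platelet fibrinogen receptor, was 1121, 780 and 1438 at 3 months and 3362, 2764 and 2727 at 12 months (1.44 ± 0.17, adjusted p = 0.00151). The von Willebrand receptor subunits Gp1ba, Gp5 and Gp9 rose by 1.39 ± 0.20, 1.31 ± 0.27 and 1.07 ± 0.25 (adjusted p = 0.00336, 0.0152 and 0.0229). Gp6, the collagen receptor, rose from 0, 1.92 and 5.81 to 16.9, 11.4 and 23.2, counts too low for a firm size. Rab27b, a GTPase of granule release, rose by 2.03 ± 0.27 (adjusted p = 0.00265).

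The 3 members called lower are also made in other blood cells: Thbs1, a matrix glycoprotein (-1.49 ± 0.40, adjusted p = 0.0417), Plek, a kinase substrate of platelets and leukocytes (-0.76 ± 0.19, adjusted p = 0.0294) and Fli1, a transcription factor (-0.38 ± 0.09, adjusted p = 0.0273). Thbs1 was 5503, 7457 and 6597 at 3 months and 5510, 1846 and 1211 at 12 months, so its WT values were alike at both ages. Tubb1, the beta tubulin of platelets, had a difference of -0.16 (adjusted p = 0.909). The number of list members called higher was 7 without the WT library of either age or the Mut library of 12 months, 8 to 11 without any other, and 2 without all WT libraries. The count of 3 genes called lower was 0 without the WT or Mut library of 3 months or the Mut or KO library of 12 months, and 1 without the 12-month WT library.

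Stem cell genes moved the same way in part. Of 23 stem and early progenitor genes, 7 were called higher and 1, Sox4, lower (median 0.45). Of 18 genes of aged stem cells, 5 were called higher and 0 lower (median 0.72). Over all genes, 2.98% were called higher and 6.91% lower. Vwf, the von Willebrand factor that marks platelet-primed stem cells and belongs to both the aged stem cell and megakaryocyte lists, was 248, 312 and 341 at 3 months and 1566, 804 and 1123 at 12 months (1.91 ± 0.29, adjusted p = 0.00437). Its WT pair moved most. Clu, a secreted chaperone, rose by 1.65 ± 0.28 (adjusted p = 0.00717), Aldh1a1, an aldehyde dehydrogenase, by 0.94 ± 0.15 (adjusted p = 0.00518) and Fhl1 by 2.05 ± 0.46 (adjusted p = 0.0214).

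Among stem cell receptors and adhesion genes, Slamf1, which encodes CD150, was 36.5, 28.9 and 19.4 at 3 months and 62.7, 55.2 and 57.9 at 12 months (1.07 ± 0.31, adjusted p = 0.0499). Fgd5, a marker of stem cells, was low throughout (12.2, 15.4 and 3.88 against 39, 57.7 and 29.5; 2.03 ± 0.54, adjusted p = 0.0385). Kit, the stem cell factor receptor, was 4338, 3744 and 3788 against 6175, 4415 and 5025 and did not pass (0.38 ± 0.12, adjusted p = 0.0709). Ly6a, which encodes Sca1, and Procr did not pass either (-0.33 ± 0.38, adjusted p = 0.628, and 0.45, adjusted p = 0.606). Without the WT library of either age, 1 stem cell gene and 2 aged stem cell genes were called higher, without the Mut library of either age 4 or 5 and 3, and without the KO library 4 or 5 and 4. Without all WT libraries the counts were 1 and 0, with the Y index as a covariate 4 and 4, and with no genotype block 2 and 4. The lower call of Sox4 was lost in each of these settings, without the 9-month libraries, without the trend and with quantile normalization.

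Red cell genes rose together. Of 29 erythroid genes tested, 21 were called higher, beside 2.98% of all genes, and 0 lower (median 0.74). All 29 differences were above 0. Their summed share was 0.213% to 0.314% of counts at 3 months and 0.401% to 0.577% at 12 months. The pairs had medians of 0.93 (WT), 0.80 (Mut) and 0.45 (KO). Slc4a1, the anion exchanger of the red cell membrane, was 1899, 1564 and 4324 at 3 months and 9997, 6152 and 8496 at 12 months (1.78 ± 0.35, adjusted p = 0.0129). Alas2, the first enzyme of haem synthesis in red cells, was 188, 218 and 607 against 970, 887 and 872 (1.63 ± 0.38, adjusted p = 0.0231). In both genes the KO library was the highest at 3 months, and the groups still did not overlap.

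The regulators rose less than Slc4a1 and Alas2, which were named for being among the list's largest differences. Their differences of 0.62 to 0.81 lay around the list's median of 0.74, and the contrast was not tested. Gata1, the lineage's main transcription factor, was 1907, 1354 and 2074 at 3 months and 3270, 2288 and 2617 at 12 months (0.62 ± 0.16, adjusted p = 0.0358). Klf1, which drives globin genes, rose by 0.73 ± 0.17 (adjusted p = 0.0228), Tal1 by 0.81 ± 0.13 (adjusted p = 0.00473) and Epor, the erythropoietin receptor, by 0.75 ± 0.17 (adjusted p = 0.0229). The globin genes Hba-a1 and Hbb-bs rose by 1.38 ± 0.37 and 1.65 ± 0.47 (adjusted p = 0.0411 and 0.0491), while their near-identical copies Hba-a2 and Hbb-bt did not pass (1.10 and 1.27, adjusted p = 0.106 and 0.056), and reads may have been split within each pair. Erfe, the erythroid hormone erythroferrone, was 40.5, 34.6 and 56.2 against 236, 123 and 309 (2.25 ± 0.37, adjusted p = 0.00541).

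The count of erythroid genes depended on single libraries and on the model. It was 1 without the mean-variance trend, 2 with no genotype block and 8 with age as a number. Without the WT, Mut or KO library at 12 months it was 1, 6 and 4, and without the WT or Mut library at 3 months 1 and 1. Without the 3-month KO library it was 26, and without all WT libraries 0. With the Y index as a covariate it was 2.

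**Figure D3:**
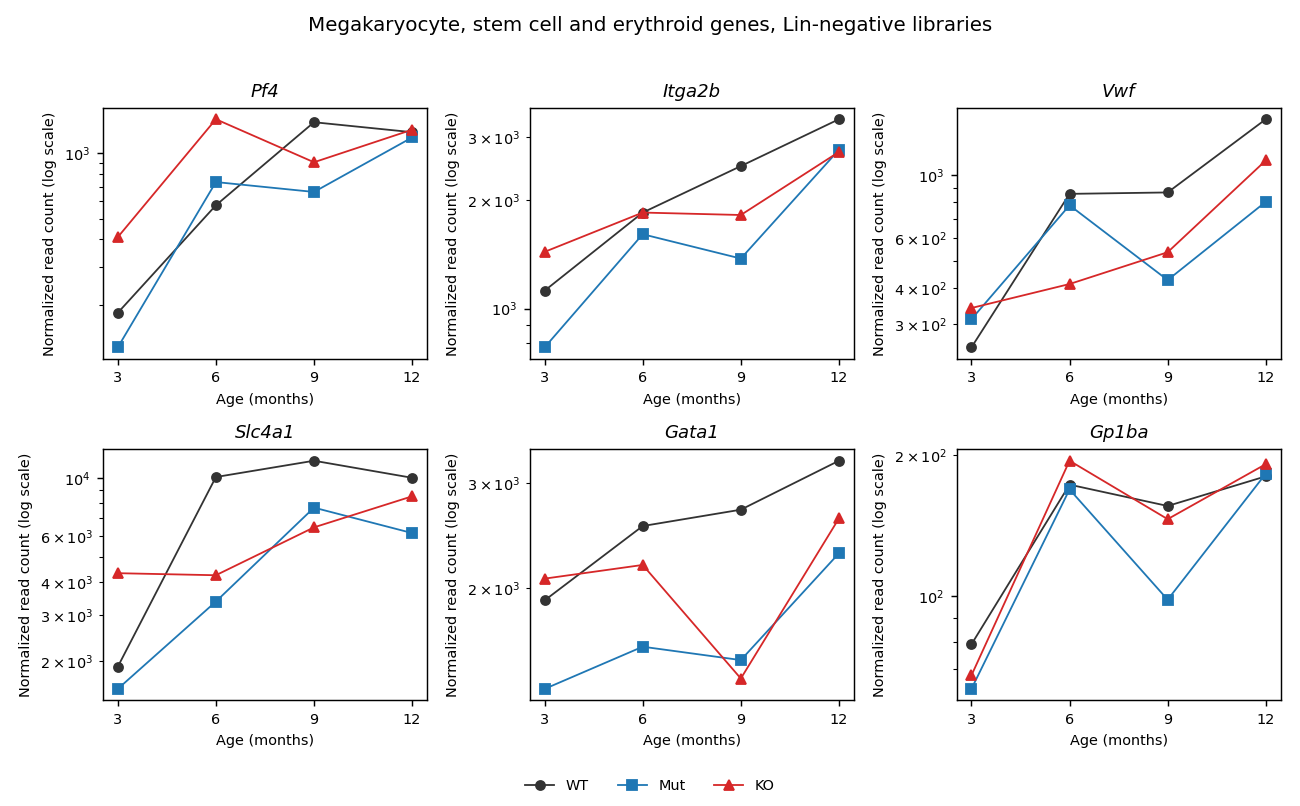
Normalized read count (y axis, log scale) of 4 megakaryocyte or stem cell genes (Pf4, Itga2b, Vwf, Gp1ba) and 2 erythroid genes (Slc4a1, Gata1) against age in months (x axis), 1 point per Lin-negative library. In every panel the 3 libraries at 12 months lie above the 3 at 3 months, and Gp1ba goes from 79, 63.5 and 67.8 to 180, 183 and 192.

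The promoters of the erythroid genes were searched for AGATAA, the core of the motif bound by GATA factors, on both strands of the 250 bases before the transcription start (RefSeq, GRCm38.p6). It occurred in 7 of 20 erythroid genes with an entry (35.0%) and in 7.78% of the 11120 tested genes with one. In lists that fell it occurred in 22.7% (late neutrophil) and 10.5% (early B lymphoid), and among megakaryocyte genes in 15.4%. Another motif, CCCNNGGG, the core bound by EBF factors, occurred in 3 of 19 early B lymphoid promoters (15.8%) and in 18.1% of all. A match is a description of letters and not a binding site. Both promoters below belong to genes that rose, Epb42 (a membrane skeleton protein, 1.04 ± 0.24, adjusted p = 0.023) and Alas2, and capitals mark the motif, here read on the opposite strand; both sequences run 5′ to 3′ in the gene's direction.
Alas2, chrX:150547167-150547416, forward strand: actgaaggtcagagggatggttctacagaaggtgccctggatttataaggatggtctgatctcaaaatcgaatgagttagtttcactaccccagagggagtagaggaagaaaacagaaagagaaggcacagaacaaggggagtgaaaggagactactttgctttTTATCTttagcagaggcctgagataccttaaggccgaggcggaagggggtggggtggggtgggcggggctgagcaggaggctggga
Epb42, chr2:121036878-121037127, reverse strand: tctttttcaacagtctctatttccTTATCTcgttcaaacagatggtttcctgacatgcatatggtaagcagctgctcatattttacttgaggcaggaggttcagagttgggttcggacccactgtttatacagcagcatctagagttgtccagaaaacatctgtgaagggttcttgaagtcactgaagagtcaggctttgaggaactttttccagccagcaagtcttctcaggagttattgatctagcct
The match begins 86 bases before the start in Alas2 and 226 bases before it in Epb42.

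Many granule genes of eosinophils and their relatives rose in these libraries. Of 18 mast cell, basophil and eosinophil genes tested, 10 were called higher and 1 lower (median 0.94), beside 2.98% and 6.91% of all genes. The summed share of counts was 0.0595% to 0.0831% at 3 months and 0.0798% to 0.157% at 12 months. By pair, the medians were 1.20 (WT), 1.49 (Mut) and 0.23 (KO). Prg2, the major basic protein of eosinophil granules (chr2:84980461-84983632), was 2957, 1518 and 2607 at 3 months and 12158, 10132 and 5984 at 12 months (1.99 ± 0.27, adjusted p = 0.00281). Its neighbour Prg3 rose by 1.55 ± 0.27 (adjusted p = 0.00798). Epx, the eosinophil peroxidase, was 1185, 439 and 826 against 4285, 3338 and 2010 (2.02 ± 0.29, adjusted p = 0.00336). The KO library was the lowest at 12 months in all 3 genes.

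Of the mast cell and basophil genes, Fcer1a, the alpha chain of the high-affinity IgE receptor, was 251, 162 and 233 at 3 months and 909, 476 and 392 at 12 months (1.38 ± 0.21, adjusted p = 0.00429). Cpa3, a mast cell protease, rose by 0.82 ± 0.20 (adjusted p = 0.0297) and Ms4a2, the beta chain of the IgE receptor, by 0.80 ± 0.21 (adjusted p = 0.0373). Gata2, a transcription factor of stem and mast cells, was 1525, 839 and 1331 against 3388, 1985 and 1733 (0.92 ± 0.16, adjusted p = 0.00798). Hdc, which makes histamine and is also found in neutrophil precursors, was called lower (-0.89 ± 0.16, adjusted p = 0.00795). The eosinophil receptor genes Il5ra and Ccr3 and the lectin gene Siglecf did not pass (-0.46, -1.83 and 0.19, adjusted p = 0.537, 0.0781 and 0.453). Ear1 and Ear6, ribonucleases of eosinophils, rose by 1.37 ± 0.37 and 1.63 ± 0.39 (adjusted p = 0.0415 and 0.0266). Their relative Ear2 was not called, with 1710, 1699 and 2011 at 3 months and 1279, 2049 and 1533 at 12 months. Reads may have been split among the similar Ear genes. The count of 10 genes called higher was 3 without the 3-month WT library, 4 without the 12-month WT library, 5 without the Mut library of either age, with the Y index as a covariate, without the trend or with age as a number, 3 with no genotype block and 0 without all WT libraries.

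AGATAA occurred in 8 of 17 promoters of this list (47.1%), beside 7.78% of all. The promoters of the IgE receptor chain genes show it on either strand, with capitals marking AGATAA or its reverse complement TTATCT.
Ms4a2, chr19:11623720-11623969, reverse strand: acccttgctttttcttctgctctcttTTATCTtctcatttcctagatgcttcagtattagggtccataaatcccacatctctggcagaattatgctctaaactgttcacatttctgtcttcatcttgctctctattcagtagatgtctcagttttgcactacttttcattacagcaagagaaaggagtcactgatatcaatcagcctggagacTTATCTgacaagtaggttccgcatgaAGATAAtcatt
Fcer1a, chr1:173227230-173227479, reverse strand: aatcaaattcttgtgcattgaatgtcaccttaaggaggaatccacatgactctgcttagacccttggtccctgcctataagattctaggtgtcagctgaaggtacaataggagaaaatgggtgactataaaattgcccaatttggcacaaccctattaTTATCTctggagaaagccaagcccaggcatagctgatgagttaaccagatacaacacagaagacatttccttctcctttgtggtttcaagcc
Ms4a2 has 3 matches, the nearest beginning 11 bases before the start, and Fcer1a has 1, beginning 92 bases before it.

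The eosinophil rise was set against the matching LSK libraries, a gate that enriches stem cells by Sca1 and Kit within the lineage-negative fraction. In these, Prg2 was 12812, 6885 and 5873 at 3 months and its age difference was -0.04 (adjusted p = 0.92). The difference between the fractions' age changes was 2.03 ± 0.19 for Prg2 (adjusted p = 0.000191) and 2.18 ± 0.18 for Epx (adjusted p = 4.65e-05). At 12 months Prg2 was 11265, 7413 and 5747 in the LSK libraries, near the Lin-negative values except in Mut, so the low values stood in the Lin-negative libraries at 3 months. Over all genes, 94 of 16066 (0.585%) differed between the fractions in their age change. Several other lists moved the same way in both fractions. LSK medians were 0.79 (erythroid), 0.97 (megakaryocyte and platelet), -2.12 (early B lymphoid) and -0.62 (late neutrophil).

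The defining markers of the LSK label did not set its 12-month libraries apart, with Kit only slightly higher and Ly6a not consistently so. Ly6a was 210, 643 and 546 in the 12-month libraries labelled LSK and 217, 839 and 541 in the Lin-negative ones, and Kit 6215, 5190 and 5683 against 6175, 4415 and 5025. At 12 months the correlation across genes of log2 values between fractions of 1 genotype was 0.988, 0.983 and 0.988, where genes are not independent replicates, and at 3 months 0.983, 0.978 and 0.972. Xist was 0, 3.77 and 4.48 in the 3-month libraries labelled LSK and 2165, 5846 and 5248 in the Lin-negative ones, so the fractions of that age did not come from pools of the same sex mix.

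**Figure D4:**
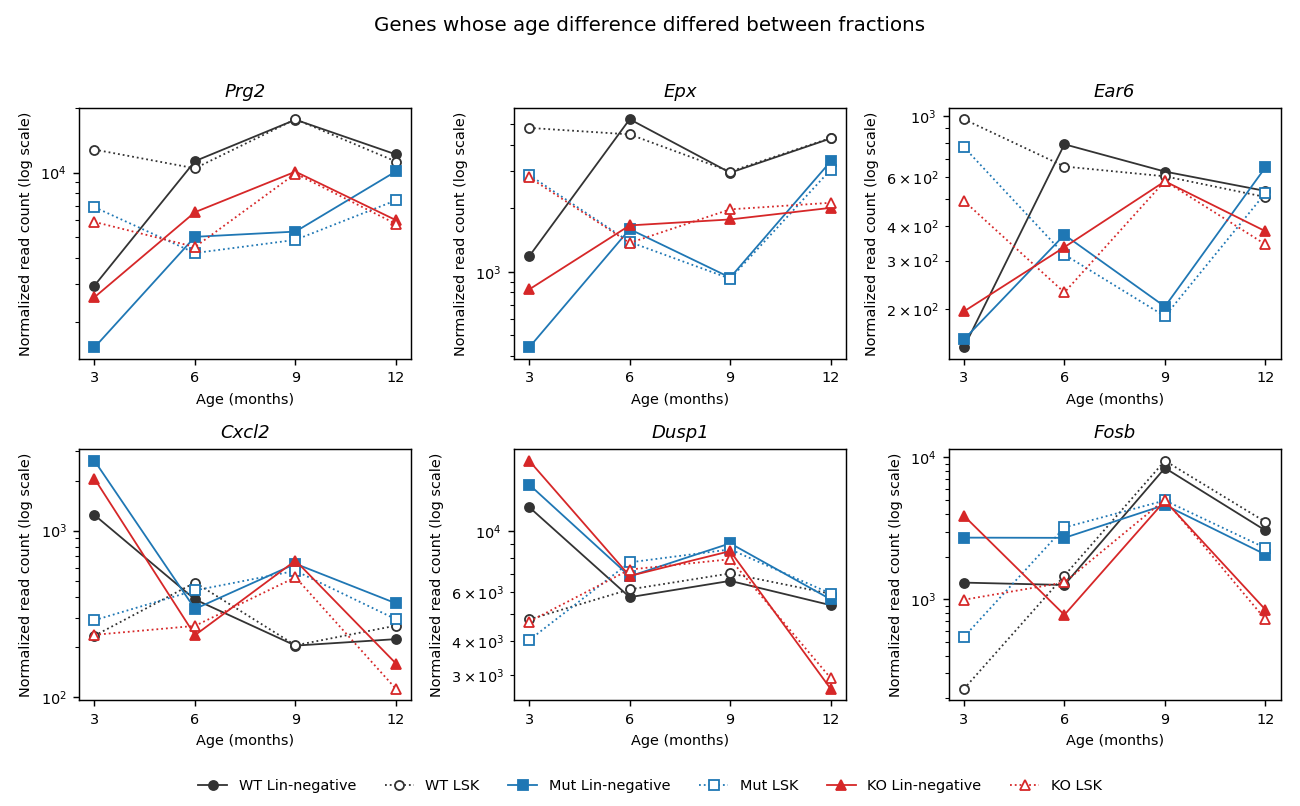
Normalized read count (y axis, log scale) of 3 eosinophil genes (Prg2, Epx, Ear6) and 3 response genes (Cxcl2, Dusp1, Fosb) against age in months (x axis), with filled symbols and solid lines for Lin-negative libraries and open symbols and dotted lines for libraries labelled LSK. The fractions are apart at 3 months (Prg2 2957, 1518 and 2607 against 12812, 6885 and 5873) and lie close together at the later ages.

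Genes of late neutrophils fell. Of 25 tested, 12 were called lower, beside 6.91% of all genes, and 0 higher (median -0.73). All 25 differences were below 0, and in 23 the ages did not overlap, beside 17.2% of all genes. The list's summed share of all normalized counts was 9.13% to 9.81% at 3 months and 4.79% to 6.57% at 12 months. The pairs had medians of -1.11 (WT), -0.58 (Mut) and -0.60 (KO). Without the 12-month WT library 6 genes were called, without the 3-month WT library 5, without the 12-month KO library 8, without the 3-month Mut library 7, with the Y index as a covariate 8, with no genotype block 7 and without all WT libraries 1. It was 19 without the 6-month libraries and 21 with DESeq2.

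Cxcr2, the chemokine receptor by which mature neutrophils leave the marrow, was 19582, 14590 and 14545 at 3 months and 3576, 4319 and 5844 at 12 months (-1.84 ± 0.28, adjusted p = 0.00384). Mmp9, a protease of tertiary granules, was 122058, 110483 and 93238 against 32235, 43246 and 49205 (-1.40 ± 0.24, adjusted p = 0.00675). In both genes the WT library was highest at 3 months and lowest at 12 months. Retnlg, a secreted resistin-like protein, moved by -1.89 ± 0.30 (adjusted p = 0.00465), Adam8 by -1.70 ± 0.17 (adjusted p = 0.000871) and Mmp8, the neutrophil collagenase, by -1.52 ± 0.22 (adjusted p = 0.00354). S100a9, a calcium-binding protein abundant in neutrophils, was 738395, 719004 and 844361 against 275080, 439528 and 418457 (-1.05 ± 0.28, adjusted p = 0.0416). The secondary granule genes Ltf, Camp, Ngp and Lcn2 did not pass (-0.73, -0.53, -0.72 and -0.71).

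The main primary granule genes of neutrophil precursors were not lower at 12 months. Mpo, the myeloperoxidase, was 130316, 143698 and 152787 at 3 months and 255085, 211414 and 200974 at 12 months (0.64 ± 0.19, adjusted p = 0.0561). Elane and Prtn3, proteases of the same granules, had differences of 0.60 and 0.61 (adjusted p = 0.056 and 0.0513). Ctsg, cathepsin G, passed (0.66 ± 0.16, adjusted p = 0.0285), with 15204, 17533 and 20307 against 30337, 26818 and 26497. Of the 15 early neutrophil genes, 2 were called higher and 2 lower, beside 2.98% and 6.91% of all genes. The 2 called higher were Ctsg and Nkg7, which is also on the T and NK list. Those called lower were Hdc and Csf3r, the G-CSF receptor that is made through to the mature cell (44047, 36395 and 33342 against 11230, 13153 and 12756; -1.61 ± 0.21, adjusted p = 0.00253). Of the early list, 0 genes were called higher without the WT library of either age, without the 12-month Mut library or with the Y index as a covariate, 6 with quantile normalization or DESeq2, and 1 was called lower without the WT library of either age. The contrast between the early and late lists was not tested.

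The promoters of late neutrophil genes were searched for TTNCNNAA, a loose core of the motif bound by C/EBP factors, on both strands. It occurred in 16 of 22 (72.7%) and in 33.8% of all 11120, and it was also frequent in the other lists (46.2% to 58.8%). Mmp8 and Retnlg are shown as examples with a match among the genes called lower, and capitals mark the motif. They were chosen after the values were seen, and Cxcr2 and Adam8 fell further than Mmp8.
Mmp8, chr9:7558179-7558428, forward strand: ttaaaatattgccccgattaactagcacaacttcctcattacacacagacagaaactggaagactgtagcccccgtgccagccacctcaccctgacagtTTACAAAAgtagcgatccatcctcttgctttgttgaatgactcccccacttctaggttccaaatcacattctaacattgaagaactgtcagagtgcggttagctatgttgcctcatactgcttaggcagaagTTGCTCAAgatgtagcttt
Retnlg, chr16:48872358-48872607, forward strand: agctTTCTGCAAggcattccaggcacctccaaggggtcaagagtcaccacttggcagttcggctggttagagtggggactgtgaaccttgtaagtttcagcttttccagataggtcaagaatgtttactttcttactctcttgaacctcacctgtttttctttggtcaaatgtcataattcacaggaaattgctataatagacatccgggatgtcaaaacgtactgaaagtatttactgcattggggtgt
The matches begin 151 and 19 bases before the start in Mmp8 and 246 bases before it in Retnlg.

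Genes of inflammatory signalling fell as well. Of 26, 9 were called lower, beside 6.91% of all genes, and 0 higher (median -0.38). Ptgs2, the inducible cyclooxygenase, was 858, 1603 and 2090 at 3 months and 71.1, 110 and 106 at 12 months (-3.91 ± 0.21, adjusted p = 2.33e-05), which is 15-fold lower. At 6 months it was still 991, 1346 and 1242, and at 9 months 410, 1118 and 1205. Il1b, the cytokine interleukin 1 beta, was 4536, 5086 and 5465 against 457, 891 and 704 (-2.92 ± 0.30, adjusted p = 0.000871). Its antagonist Il1rn and its decoy receptor Il1r2 moved by -1.89 ± 0.26 and -1.57 ± 0.27 (adjusted p = 0.00307 and 0.0067), and Tnf by -1.19 ± 0.21 (adjusted p = 0.00798). Late neutrophil genes fell in the same libraries, from 9.13% to 9.81% of all counts at 3 months to 4.79% to 6.57% at 12 months, and their part in this result was not tested. The count was 4 without the 3-month WT library, 7 to 10 without any other and 5 without all WT libraries.

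**Figure D5:**
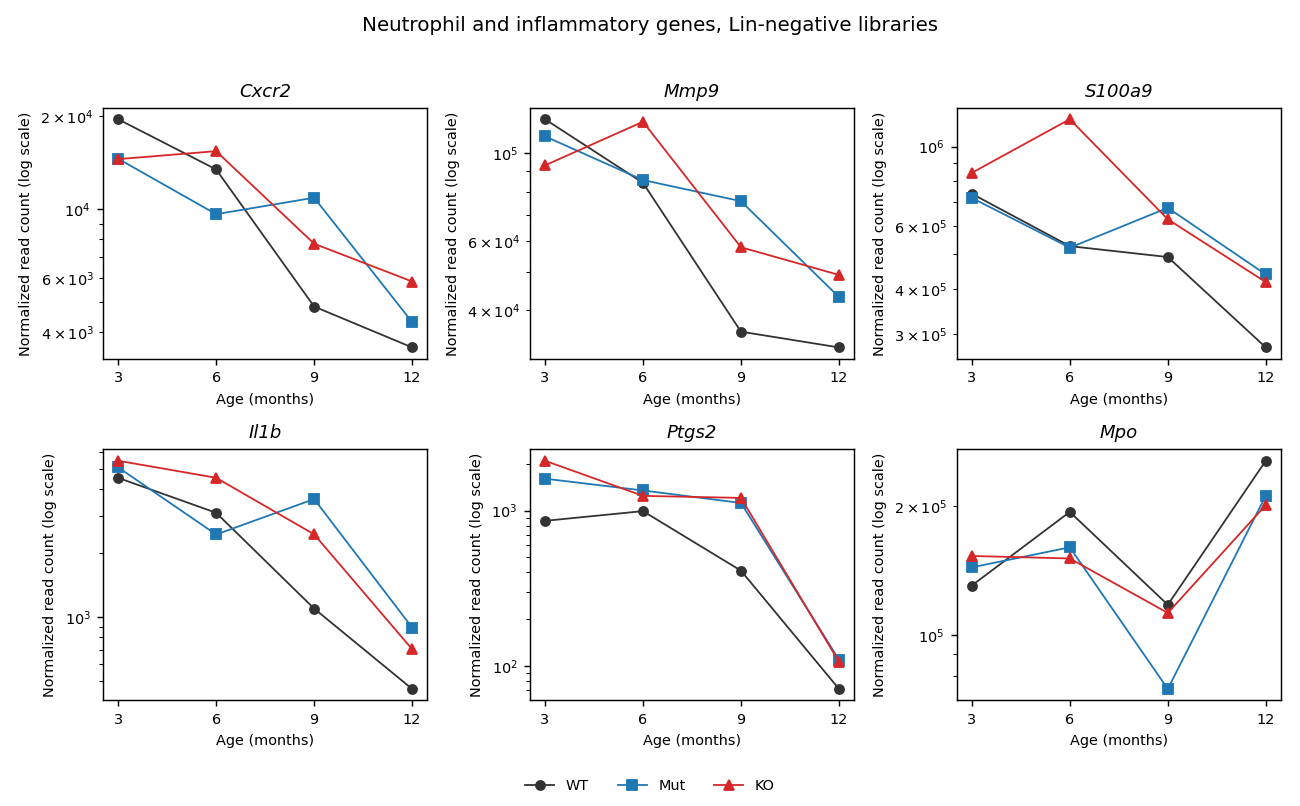
Normalized read count (y axis, log scale) of 3 late neutrophil genes (Cxcr2, Mmp9, S100a9), 2 inflammatory genes (Il1b, Ptgs2) and the primary granule gene Mpo against age in months (x axis), 1 point per Lin-negative library. The first 5 are lower in all 3 libraries at 12 months than in any at 3 months (Ptgs2 71.1, 110 and 106 against 858, 1603 and 2090), and Mpo is higher in all 3.

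Immediate early genes, which cells switch on within minutes of a stimulus or of handling, gave 8 of 24 called lower and 0 higher (median -0.53, and -1.03 within KO). Over all genes, 6.91% were called lower. Dusp1, a phosphatase that ends MAP kinase signals, was 12246, 14789 and 18048 at 3 months and 5395, 5664 and 2678 at 12 months (-1.77 ± 0.24, adjusted p = 0.00307). Junb moved by -1.40 ± 0.23 (adjusted p = 0.00645), Zfp36, which destabilises cytokine RNAs, by -1.23 ± 0.19 (adjusted p = 0.00437) and Klf6 by -0.91 ± 0.10 (adjusted p = 0.00101). In the LSK libraries the list's median was 0.10. The age change differed between fractions in 9 of the 24 genes, beside 0.585% of all genes. For Dusp1 the 3-month LSK libraries had 4788, 4027 and 4702, below the Lin-negative ones of that age, and the fractions' age changes differed by -1.84 (adjusted p = 5.07e-06). The list's count was 4 without the 3-month WT library, 5 without the KO library of either age and 3 without all WT libraries.

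Some interferon response genes fell, with a count that rested on single libraries. Of 37, 11 were called lower, beside 6.91% of all genes, and 0 higher (median -0.48). The older values all lay below the younger ones in 5 of the 37, beside 17.2% of all genes. The pairs had medians of -0.40 (WT), -0.87 (Mut) and -0.17 (KO). Ifit3, an antiviral protein, was 257, 1431 and 693 at 3 months and 118, 275 and 419 at 12 months (-1.41 ± 0.32, adjusted p = 0.023). Here the ages overlapped, since the older Mut and KO values exceeded the younger WT value. Oasl2 moved by -1.33 ± 0.36 (adjusted p = 0.0415). The count was 1 without the WT or the Mut library of either age, 14 and 5 without the KO library of 12 or 3 months, 16 without all KO libraries, 3 with the Y index as a covariate, 1 without the trend, and 0 with no genotype block or without all WT libraries.

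Of 26 monocyte and macrophage genes, 11 were called lower, beside 6.91% of all genes, and 0 higher (median -0.37). The older values all lay below the younger ones in 5 of the 26, beside 17.2% of all genes. Cd5l, secreted by tissue macrophages, was 217, 618 and 465 at 3 months and 15.2, 73.9 and 242 at 12 months (-2.58 ± 0.68, adjusted p = 0.0394), with the older KO value above the younger WT one. Spic, the transcription factor of iron-recycling macrophages, moved by -2.14 ± 0.47 (adjusted p = 0.0202), and the complement gene C1qa by -1.62 ± 0.27 (adjusted p = 0.00626), whose ages also overlapped. Hmox1, which degrades haem, was 2879, 3217 and 3279 against 738, 1470 and 1323 (-1.47 ± 0.16, adjusted p = 0.00108), and its ages did not overlap. Adgre1, which encodes the macrophage antigen F4/80, was 2665, 2582 and 2231 against 1199, 2446 and 2292, lower in WT and nearly level in Mut and KO (-0.40 ± 0.21, adjusted p = 0.261). The monocyte genes Ly6c2, Ccr2, Csf1r and F13a1 had differences from -0.15 to 0.04. The count was 3 without the WT or Mut library of 12 months, without the trend or with no genotype block, 4 or 5 without any library of 3 months and 1 without all WT libraries.

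In the list of MHC class II and dendritic cell genes, 4 of 20 were called lower and 0 higher (median -0.33): Siglech, a lectin of plasmacytoid cells (1461, 1277 and 1633 against 341, 343 and 142; -2.50 ± 0.37, adjusted p = 0.00345), Ly6d (-2.30 ± 0.30, adjusted p = 0.00253), Ccr9 (-2.13 ± 0.23, adjusted p = 0.00113) and Cox6a2 (-2.12 ± 0.33, adjusted p = 0.00449). Over all genes, 6.91% were called lower. Ly6d also marks B-committed lymphoid progenitors. Class II genes H2-Aa, H2-Ab1, H2-Eb1 and Cd74 had differences from -0.35 to -0.19. Leaving out any 1 library left 4 or 5 genes called, and leaving out all WT libraries left 0.

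Of 20 p53 target and senescence genes, 6 were called lower and 1 higher (median -0.14), beside 6.91% and 2.98% of all genes. Trp53inp1, a p53-induced nuclear protein, was 6039, 5549 and 4981 at 3 months and 2128, 2653 and 2350 at 12 months (-1.22 ± 0.15, adjusted p = 0.00165), and the cell cycle inhibitor Cdkn1b moved by -0.70 ± 0.12 (adjusted p = 0.00802). The count of p53 targets called lower was 2 without the 12-month WT library, 1 without the 3-month WT library and 4 without the 12-month Mut or KO or the 3-month Mut library. Of 29 T and NK cell genes, 2 were called higher and 1 lower, beside 2.98% and 6.91% of all genes. Pdcd1 and Nkg7 were called higher and Gzma, granzyme A, lower (411, 381 and 519 against 132, 103 and 90.5; -2.0 ± 0.34, adjusted p = 0.0067). Nkg7 is also on the early neutrophil list and counts there too. Pdcd1, the receptor PD-1, was 16.2, 19.2 and 40.7 at 3 months and 30.5, 976 and 137 at 12 months. It rose in all 3 pairs, by far the most in Mut. In the T and NK list 0 genes were called higher without the WT or Mut library of 12 months. Without the 3-month Mut library 0 were higher and 3 lower, and the median turned from 0.15 to -0.23. Of 15 stromal and endothelial genes, 3 were called lower, beside 6.91% of all genes, among them Cdh5, a cadherin of endothelium (205, 139 and 145 against 18.6, 37.4 and 12.6; -2.89 ± 0.41, adjusted p = 0.00333). That count was 1 without the 3-month WT or KO or the 12-month Mut or KO library, and 0 without all WT libraries.

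Few genes of cell division or housekeeping lists were called, beside 2.98% of all genes called higher and 6.91% lower. Of 24 DNA replication genes 1 was called, Mcm2, a subunit of the replicative helicase (10179, 10006 and 10097 against 15867, 11668 and 13620; 0.43 ± 0.12, adjusted p = 0.0469), although all 24 differences were above 0 and the ages did not overlap in 21, beside 16.9% of all genes. The call was lost without any 1 of the 6 libraries, with the Y index as a covariate, with TMM and with edgeR, while quantile normalization gave 6 and DESeq2 4. By limma, 0 of 20 G2 and mitosis, 0 of 20 unfolded protein response, 0 of 34 ribosomal protein, 0 of 18 TET and DNA methylation and 0 of 9 sex-linked genes were called, and 1 of 28 oxidative phosphorylation and 1 of 13 mitochondrially encoded genes. Tet1 and Tet3 had differences of 0.53 ± 0.32 (adjusted p = 0.314) and 0.19 ± 0.20 (adjusted p = 0.587).

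Some of the largest changes lay outside the lists. Timp3, an inhibitor of matrix metalloproteinases, rose from 25.3, 17.3 and 25.2 to 202, 102 and 257 (2.91 ± 0.30, adjusted p = 0.000871). Apol11b, an apolipoprotein L gene, rose from 14.2, 112 and 50.4 to 166, 497 and 344 (2.78 ± 0.27, adjusted p = 0.000836). Podxl, a sialomucin of stem and endothelial cells, was 44.6, 127 and 38.8 at 3 months and 146, 250 and 1459 at 12 months (2.62 ± 0.67, adjusted p = 0.0338), with the KO library far above the others. Cavin2, a caveola protein found in platelets, rose by 1.77 ± 0.27 (adjusted p = 0.00397) and Kcnj5, a potassium channel, by 1.72 ± 0.32 (adjusted p = 0.0105). Steap4, a metalloreductase, fell from 567, 371 and 270 to 32.2, 19.5 and 54.7 (-3.52 ± 0.70, adjusted p = 0.0131).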

How the data were processed

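RNA of 24 pooled mouse marrow libraries was sequenced, and 12 of them, the Lin-negative libraries of all 4 ages, entered the fit. The deposited unit is a signal: the authors divided each library's reads per gene by its size factor, and 100% of values came out as whole reads within 1e-06 once multiplied back. Trim Galore 0.6.5, STAR 2.7.3a, featureCounts, edgeR, Bismark 0.22.3 and mm10 are named without roles per the submitters' processing notes. Annotation, strand setting and gene filter: not given in the sources used here. The table holds 16070 genes. Genes that reached a value of 10 in 3 or more libraries (16041) were tested with limma 3.58.1 (R 4.3.3) on log2(value + 1), with age as a factor, genotype as a block and a mean-variance trend, at a Benjamini-Hochberg adjusted p under 0.05. The scale understates changes of low genes. As alternatives, edgeR 4.0.16 and DESeq2 1.42.0 were run on the recovered reads. The scripts were tested on simulated data.

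The other 12 libraries are labelled LSK, and the difference between fractions was fitted over all 24. One LSK sample of 12 months carries a description code with the KO letter but a Mut title and was used as Mut. No column belonged to another series (0 such columns).

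Members and gene lists were chosen with earlier results of these data known. Named genes are the 15 largest rises and 15 largest falls with a mean log2 of at least 6 and the same sign in all 3 genotypes (predicted genes and receptor segments passed over), up to 5 called genes per list, Tet1, Tet2, Tet3, Xist and the Y-linked genes. For the fractions they are the 5 largest each way. Other genes were named, and motifs and promoters chosen, after their values were seen. Of the symbols, 14703 (91.5%) matched RefSeq GRCm38.p6. The 25 lists held 560 genes, of which 542 were in the table, and the rest were not tested here. Some genes taken by the rule are not reported here.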

Additional observations from a re-analysis of the deposited data

Results flagged for a closer look

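The age change of 94 genes differed between Lin-negative and LSK libraries (limma, adjusted p under 0.05 for the difference between fractions), 17 more positive and 77 more negative in Lin-negative cells. The eosinophil genes Ear6, Epx, Ear1, Prg2 and Prg3 had fraction differences of 2.29, 2.18, 2.06, 2.03 and 1.95 on the log2 scale. In each, Lin-negative cells gained with age (1.63, 2.02, 1.37, 1.99 and 1.55) while the LSK difference lay between -0.68 and -0.04.

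The largest differences the other way were Xist (-10.77), Cxcl2 (-2.71), Fcmr (-2.36), Fosb (-2.30) and Nuak1 (-2.06). For Xist the LSK libraries went from 0, 3.77 and 4.48 in WT, Mut and KO at 3 months to a log2 difference of 12.00, while the Lin-negative change was 1.23. Cxcl2, a neutrophil-attracting chemokine, was 1241, 2631 and 2053 in Lin-negative and 234, 290 and 236 in LSK libraries at 3 months, and 223, 366 and 159 against 268, 293 and 112 at 12 months. Fosb had a Lin-negative difference of -0.46 (adjusted p = 0.626) and an LSK difference of 1.84. At 3 months the fractions also differed in Y index, 0.717, 0.472 and 0.279 in Lin-negative against 0.917, 0.881 and 1 in LSK libraries, and its part in these differences was not tested.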

How the results depend on the processing

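The count of 1586 genes called was 1452 to 1752 under both pseudocounts, both filters, TMM, quantile normalization, robust moderation, edgeR and without the 6-month or 9-month libraries or both. It was 679 without the mean-variance trend, 2437 with DESeq2, 687 with the Y index as a covariate and 740 with age as a number. With no replicate block (genotype left out) it was 827. Leaving out libraries gave 94 (all WT libraries) to 1507 (all KO libraries). Fewer libraries leave less to estimate the spread from. The replicate numbers name genotypes, so the block is the genotype and no animals are paired. The 104 results past the threshold for named genes hold age differences and also the differences between fractions, so a gene can count under both. Of these 104, 28 stayed on their side of the threshold under every alternative run and 0 changed direction. Of those named in the report, they include Ebf1, Rag1, Igll1, Vpreb1, Vpreb3, Akap12, Chst3, Pf4, Adam8, Csf3r, Ptgs2, Il1b, Il1rn, Dusp1, Klf6, Hmox1 and Trp53inp1.

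The count of 94 genes differing between fractions was 21 with only the libraries at 3 and 12 months, 26 without the 9-month and 48 without the 6-month libraries, 25 without the trend and 94 without the replicate block. It was 27 (without the 12-month WT library) to 89 when libraries were left out. The causes were not tested. Counts of low genes such as Gp6 and Vpreb2 limit their fold changes.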
